A study of Rattus norvegicus with 12 samples.

Results

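Fgf2, Ptk2b and Pdcd10 are genes of growth and vessel signalling, and each was measured by 1 catalogue probe among the 38804 probes of a rat array. The 3 probes were taken for the known roles of their genes, by probe name: A_44_P212850 for Fgf2 (accession NM_019305), A_44_P482346 for Ptk2b (NM_017318) and A_43_P19174 for Pdcd10 (NM_001009542). Each probe was printed as 10 spots on every array. RNA came from the synovium, which lines the joints, of male rats in 3 groups with 4 arrays each. Control rats were normal, CIA rats had collagen-induced arthritis, a model of rheumatoid arthritis raised by immunisation, and BZXD rats had the same arthritis and received the herbal preparation Bi Zhong Xiao Decoction. The labels give no strain, age, dose or duration, and do not say whether an array holds tissue of 1 rat or of several, so the spread behind each p-value is that between these samples and may be partly technical.

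Fibroblast growth factor 2, the product of Fgf2, is a secreted ligand that binds heparan sulfate and signals through receptor tyrosine kinases to drive the growth of fibroblasts and blood vessels. Ptk2b encodes the kinase Pyk2, a relative of focal adhesion kinase that is activated by calcium and integrins and carries signals of adhesion and migration. Pdcd10 encodes CCM3, a scaffold of the cerebral cavernous malformation complex that binds kinases of the GCKIII family and is needed for stable vessel walls. In arthritis the synovial lining thickens and new vessels grow into it, a tissue known as pannus.

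In the GRCr8 assembly of RefSeq the Fgf2 gene overlaps its neighbour Nudt6, known as an antisense partner of Fgf2. Ptk2b holds a long non-coding RNA gene within its bounds, and Pdcd10 lies next to Serpini1. Whether the probes also detect these neighbours was not tested. Of 93 genes on 4 lists (the FGF pathway, signalling around Ptk2b, partners of Pdcd10, and vessel growth), only these 3 genes had a named probe, so the receptors, inhibitors and targets of the pathways are not analysed here. None of 73 markers of 13 cell and tissue types had a named probe either, and the synovial make-up of the samples was not checked. In tissue RNA, fewer cells of a type and less RNA per cell cannot be told apart.

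A level here is the log2 intensity, averaged over the spots not marked as outliers, minus the 75th percentile of all non-control probes on the same array, so that 0 marks that percentile. That percentile ran from 54.3 to 69.6 intensity units on Control arrays, from 91.1 to 118 on CIA arrays and from 24.7 to 32.7 on BZXD arrays. Probes well above background made up 73.8% ± 5.98 of those on Control arrays, 75.8% ± 6.54 on CIA arrays and 49.4% ± 4.10 on BZXD arrays (SD, 4 arrays per group). Spots of the 3 probes were never saturated. Control arrays were in scan 1, CIA arrays in scan 2 and BZXD arrays in scan 3, and the effect of a scan cannot be told apart from that of its group. An array counted a probe as well above background where at least 50% of its spots used carried the scanner's flag.

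Fgf2 lay at similar levels in normal and arthritic synovium and lower in rats given the decoction. Its levels on Control replicates 1 to 4 were -2.30, -2.30, -1.98 and -2.12. On CIA replicates 1 to 4 they were -1.76, -2.21, -2.09 and -1.99. On BZXD replicates 1 to 4 they were -3.77, -2.45, -3.93 and -4.47. Control and CIA arrays overlapped, and all 4 BZXD arrays lay below all 8 others. The group means were -2.17 ± 0.16 (Control), -2.01 ± 0.19 (CIA) and -3.66 ± 0.86 (BZXD), with the SD of n = 4 arrays each. BZXD replicate 2 stood closest to the other groups, and without it the BZXD mean was -4.06 ± 0.37 (SD, n = 3).

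The Fgf2 signal was well above background on all 4 Control and all 4 CIA arrays, where every one of the 38 spots used in each group carried the flag. Among the BZXD arrays replicate 2 alone was well above background, with 9 of 10 spots flagged, and the other 3 arrays had 0 flagged spots each. Of the 38 BZXD spots used, 26 still exceeded the 95th percentile of the negative control spots of their array. The SD over spots on an array was 0.07 to 0.17 in Control and CIA and 0.25 to 0.74 in BZXD on the log2 scale. On 3 of the 4 BZXD arrays the level of Fgf2 is therefore known only as low.

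**Figure D1:**
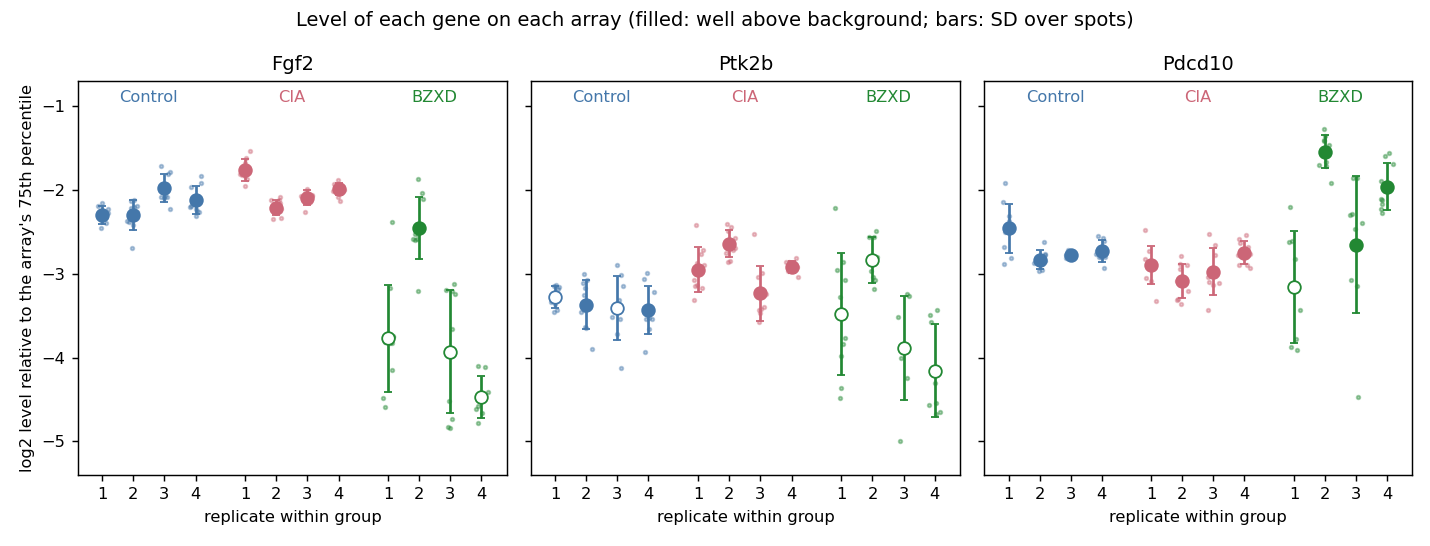
Log2 level of Fgf2, Ptk2b and Pdcd10 (vertical axis, relative to the 75th percentile of each array) on the 12 arrays, by group and replicate number. Large points are array means with the SD over spots, small points are single spots, and open points are arrays where the probe was not well above background. Fgf2 lies at -2.30 to -1.76 on Control and CIA arrays and at -4.47 to -2.45 on BZXD arrays, while Pdcd10 spreads from -3.16 to -1.54 in BZXD.

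Ptk2b was dim throughout and highest in CIA, and 0 of the 4 BZXD arrays measured it well above background. On Control replicates 1 to 4 its levels were -3.28, -3.37, -3.41 and -3.43. CIA replicates 1 to 4 gave -2.95, -2.64, -3.23 and -2.92. BZXD replicates 1 to 4 gave -3.48, -2.84, -3.89 and -4.16. All 4 CIA arrays lay above all 4 Control arrays. The BZXD arrays ran from below both groups to within the CIA range, and CIA replicate 2 lay above them all. The means were -3.37 ± 0.07 (Control), -2.94 ± 0.24 (CIA) and -3.59 ± 0.57 (BZXD), with the SD of n = 4 arrays each. BZXD replicate 2 was again the highest of its group, and without it the BZXD mean was -3.84 ± 0.34 (SD, n = 3).

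Detection of Ptk2b differed between arrays of the Control group. Replicates 2 and 4 were well above background with 9 of 10 spots flagged each, replicate 3 had 4 of 9 spots flagged and replicate 1 had 0 of 9. Replicate 1 had the highest Ptk2b intensity of the group, 7.03 units, but its lowest probe well above background lay at 8.28 units against 4.33 to 4.74 on the other 3 arrays. In CIA 34 of 37 spots were flagged, and in BZXD 3 of 33. All 38 Control spots and all 37 CIA spots used exceeded the 95th percentile of the negative controls, as did 24 of 33 BZXD spots.

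Pdcd10 stayed measurable in most samples, and its BZXD arrays spread above and below the others. The levels were -2.46, -2.83, -2.78 and -2.73 on Control replicates 1 to 4. They were -2.90, -3.09, -2.98 and -2.75 on CIA replicates 1 to 4, and -3.16, -1.54, -2.65 and -1.96 on BZXD replicates 1 to 4. Control and CIA overlapped. BZXD replicates 2 and 4 lay above all 8 Control and CIA arrays, replicate 3 lay within the Control range, and replicate 1 lay below all 8. The means were -2.70 ± 0.17 (Control), -2.93 ± 0.14 (CIA) and -2.33 ± 0.72 (BZXD), with the SD of n = 4 arrays each. Pdcd10 was well above background on all Control and CIA arrays and on 3 of the 4 BZXD arrays, with 25 of 36 BZXD spots flagged and 34 of 36 above the 95th percentile of the negative controls. BZXD replicate 1, where none of the 8 spots used was flagged, also had the lowest intensity at the 75th percentile, 24.7 units.

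Before any scaling, all 3 probes were brighter on CIA than on Control arrays on average and dimmest on BZXD arrays. Fgf2 had a mean intensity of 14.2 ± 0.50 (Control), 26.4 ± 3.90 (CIA) and 2.77 ± 2.17 (BZXD), with the SD of n = 4 arrays each. The Fgf2 ranges did not touch, with 13.8 to 14.9 in Control, 21.4 to 30.2 in CIA and 1.22 to 5.97 in BZXD. Ptk2b ran from 5.11 to 7.03 in Control, from 9.68 to 18.9 in CIA and from 1.52 to 4.58 in BZXD. Pdcd10 ran from 7.92 to 12.4, from 11.6 to 16.9 and from 2.77 to 11.2 in the same order. The whole array followed the same order of groups, as the 75th percentile shows. On the unscaled values Pdcd10 thus ran in the opposite direction to its scaled level, with log2 differences of 0.50 for CIA against Control, -1.28 for BZXD against CIA and -0.78 for BZXD against Control.

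**Figure D2:**
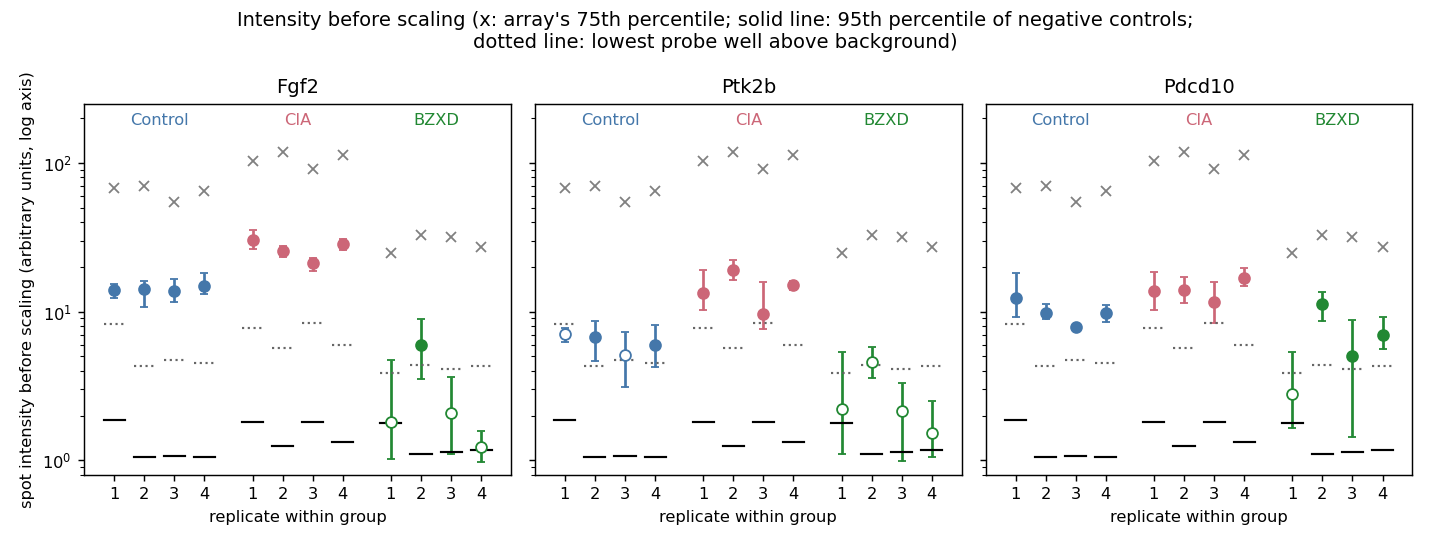
Intensity before scaling (log axis, arbitrary units) of each probe on the 12 arrays, by group and replicate number. Points are means over spots on the log scale with bars from the lowest to the highest spot, crosses mark the 75th percentile of the array, solid lines the 95th percentile of its negative controls and dotted lines its lowest probe well above background. Fgf2 lies at 13.8 to 30.2 on Control and CIA arrays, and on 3 BZXD arrays at 1.22 to 2.07, near the negative controls.

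CIA was compared with Control to ask which genes differ between arthritic and normal synovium. Fgf2, Ptk2b and Pdcd10 did not pass the threshold, an adjusted p under 0.05 over the 31247 tested probes in a limma fit of all 12 arrays. In that fit 0.0128% of tested probes were called. Ptk2b showed the largest difference of the 3, 0.44 ± 0.25 higher in CIA (log2, SE, n = 4 per group, limma adjusted p = 0.562). Fgf2 differed by 0.16 ± 0.34 (limma adjusted p = 0.936) and Pdcd10 by -0.23 ± 0.29 (limma adjusted p = 0.860). The 95% intervals ran from -0.12 to 0.99 for Ptk2b, from -0.58 to 0.91 for Fgf2 and from -0.87 to 0.41 for Pdcd10.

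For Ptk2b the CIA and Control arrays did not overlap, which held for 21.0% of tested probes in either direction and for 5.51% in the higher one. An exact two-sided permutation test of its difference over the 8 arrays gave p = 0.0286, unadjusted and the smallest value that 4 against 4 arrays can give, where 9 such member tests were made. In a limma fit of only the 8 Control and CIA arrays, where 9.37% of probes were called, its adjusted p was 0.0660. Each of the 10 spot positions of Ptk2b gave a higher CIA than Control mean, by 0.21 to 0.997 on the log2 scale. The positions share their arrays and are not replicates. Ptk2b was called with array weights, which count noisier arrays less (0.48, limma adjusted p = 0.0119), and with no scaling (1.16, limma adjusted p = 0.0266), and was lower in CIA under a normexp background correction with an offset of 50 (-0.21). The fit with array weights called 6469 probes in all. The unscaled fit called 9096, of which 99.8% were higher, and its median over all tested probes was 0.65.

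Fgf2 and Pdcd10 did not reach the threshold with the 8 arrays either, at limma adjusted p = 0.407 and 0.217. Their exact two-sided permutation p-values were 0.257 and 0.0857. Fgf2 was higher in CIA at 9 of 10 spot positions and Pdcd10 lower at 9 of 10. Under the offset correction Fgf2 turned to -0.16 (limma adjusted p = 0.0414) and Pdcd10 stood at -0.31 (limma adjusted p = 0.00238), in a setting that called 14700 probes.

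**Figure D3:**
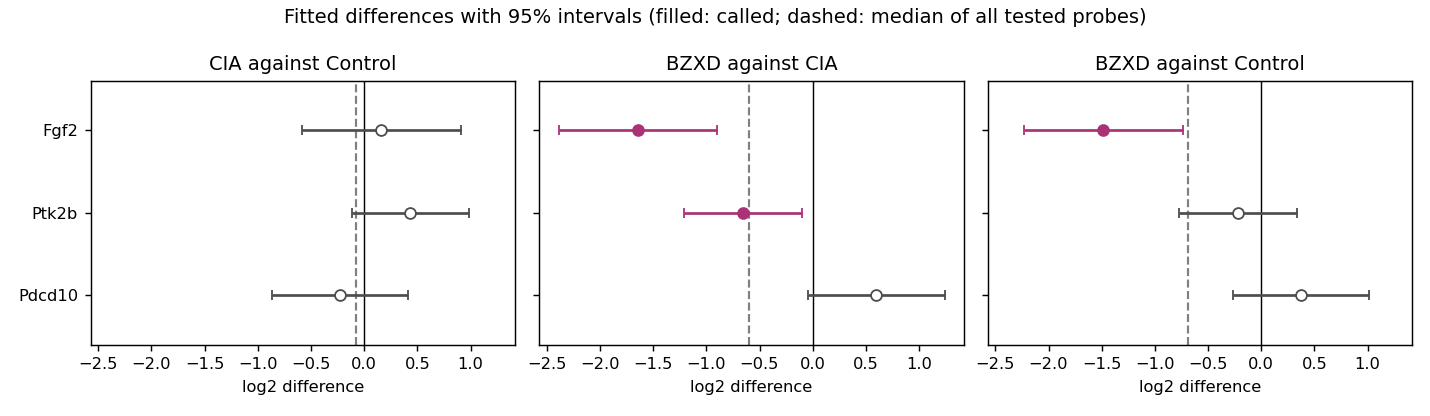
Fitted log2 differences (horizontal axis) of the 3 genes in each comparison with 95% intervals from the limma fit of 12 arrays. Filled points passed the adjusted threshold and the dashed line is the median difference of all tested probes. Fgf2 passed in both BZXD comparisons, at -1.64 and -1.48, and Ptk2b against CIA at -0.65, close to the median of -0.60.

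BZXD was compared with CIA to ask what differs in arthritic synovium after the decoction. Fgf2, the ligand, was lower in BZXD, with a fitted value of -1.64 ± 0.34 (log2, SE, 4 arrays per group, limma adjusted p = 0.000901) and a 95% interval from -2.39 to -0.90. With dim signals raised to the lowest probe well above background of their array, that difference was -0.67 (limma adjusted p = 0.00116), and no fold is given because 3 of the 4 BZXD arrays did not measure Fgf2 well above background. On those 3 arrays the floors, -2.68, -2.95 and -2.66, lay below every CIA level of Fgf2, so the direction there was fixed. The p-value at the floor rests partly on the spread of floors, not of measured levels. Ptk2b, the kinase, was called lower in the fit, at -0.65 ± 0.25 (limma adjusted p = 0.0332), but 0 of the 4 BZXD arrays measured it well above background, and at the floor its difference was 0.16 (limma adjusted p = 0.357). Pdcd10, the scaffold, stood at 0.60 ± 0.29 and did not pass (limma adjusted p = 0.0825), with an interval from -0.04 to 1.24. Most probes on the array were called here, 74.7% in either direction, 47.4% lower and 27.3% higher, and the median difference of all tested probes was -0.60. The share of calls that were higher was 36.6% and ran from 12.97% to 76.2% across the other settings.

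Against that median, Fgf2 was lower by 1.05, Ptk2b by 0.06, and Pdcd10 was higher by 1.19 on the log2 scale. Fgf2 lay at percentile 23.9 of the differences of all tested probes, Ptk2b at percentile 48.8 and Pdcd10 at percentile 70.3. Under 13 other settings Fgf2 lay below the median of all probes in 13, by 0.06 to 1.60, and Pdcd10 above it in 13, by 0.26 to 1.49. Ptk2b lay below it in 8 and above it in 5. Subtracting another constant from each array, fitting 8 arrays, or adding a replicate block or a trend can hardly move these distances. Such settings are therefore not separate support.

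The CIA and BZXD arrays did not overlap for Fgf2, which held for 66.2% of tested probes in either direction and for 42.0% in the lower one, and did overlap for Ptk2b and Pdcd10. The exact two-sided permutation test gave p = 0.0286 for Fgf2, 0.114 for Ptk2b and 0.200 for Pdcd10. All 10 spot positions of Fgf2 were lower in BZXD, by 1.05 to 2.13. Ptk2b was lower at 9 of 10 positions and Pdcd10 higher at 9 of 10. With 1 array left out in turn, Fgf2 was called in 12 of 12 fits, between -2.05 and -1.37, Ptk2b in 7 of 12 and Pdcd10 in 1 of 12.

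The size of the Fgf2 difference rests on BZXD arrays near background. Beside the smaller value at the floor, it was -0.45 under normexp without an offset (limma adjusted p = 0.0359) and turned to 0.42 under normexp with an offset of 50, a setting in which the median of all probes was 0.49. BZXD replicate 2, the one array of the group that measured Fgf2, stood at -2.45 against -2.21 for the lowest CIA array.

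The call of Ptk2b did not hold across settings, and the probe was tested only through its CIA arrays, where it was highest. No fold can be bounded, because its CIA mean, -2.94, lay below the mean over the BZXD arrays of the lowest level well above background, although CIA replicate 2, at -2.64, lay above all 4 of those levels. The call was lost in the fit of 8 arrays (limma adjusted p = 0.0800, where 69.9% of probes were called) and with median scaling (-0.31, limma adjusted p = 0.344). It was also lost without CIA replicate 1, 2 or 4 (limma adjusted p = 0.0593, 0.0909 and 0.0640) and without BZXD replicate 3 or 4 (0.0865 and 0.0998), and its difference turned to 0.076 with quantile normalization, 0.11 under normexp without an offset, 0.16 at the floor and 0.63 with the offset. Pdcd10 in turn was called higher with quantile normalization (1.04, limma adjusted p = 0.00344), median scaling (0.95, limma adjusted p = 0.0119), the floor (0.72, limma adjusted p = 0.0151), both normexp settings (0.85 and 0.75) and array weights (0.55, limma adjusted p = 0.0350). The normexp offset of 50 exceeded the mean intensity of Pdcd10 on every array. In that setting the median of all tested probes was 0.49, and Pdcd10 lay 0.26 above it, so its call there is not separate support. Without BZXD replicate 1, the array in which it was not well above background, Pdcd10 stood at 0.88 (limma adjusted p = 0.00626). With no scaling it stood at -1.28 (limma adjusted p = 0.00424), where the median of all tested probes was -2.47 and Pdcd10 lay 1.196 above it, against 1.19 in the scaled fit. Scaling by a constant per array can hardly move that distance.

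**Figure D4:**
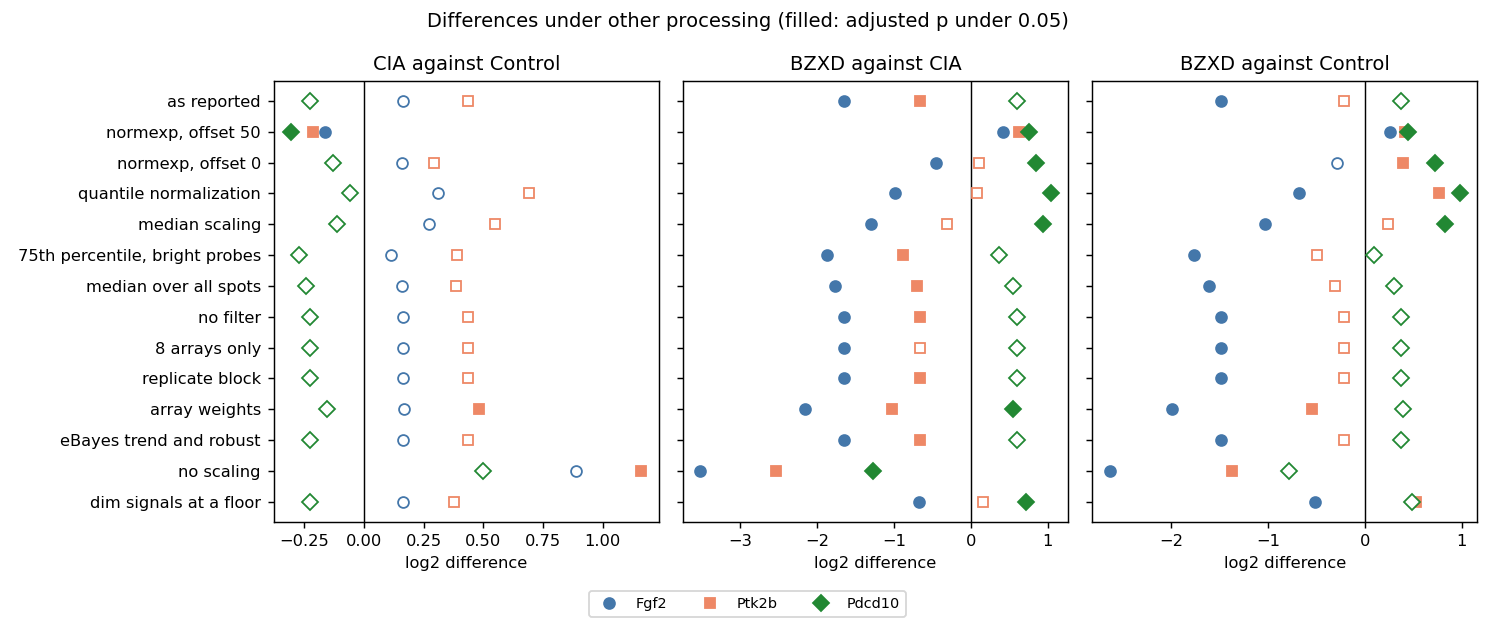
Log2 difference (horizontal axis) of Fgf2, Ptk2b and Pdcd10 in each comparison as reported and under 13 other settings (rows), each panel with its own horizontal scale. Filled symbols have a limma adjusted p under 0.05. For BZXD against CIA, Fgf2 is lower in all settings but the normexp offset of 50 (0.42), Pdcd10 is higher in all but the unscaled values (-1.28), and Ptk2b lies on both sides of 0.

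The comparison of BZXD with Control shares the BZXD arrays with the one above, and asks how far treated rats lay from normal ones. Fgf2 was lower, with a fitted difference of -1.48 ± 0.34 (log2, SE, n = 4 per group, limma adjusted p = 0.00178, 95% interval from -2.23 to -0.74). At the floor it was -0.51 (limma adjusted p = 0.00709), where the floors of BZXD replicates 1, 3 and 4 also lay below every Control level of Fgf2. Ptk2b differed by -0.22 ± 0.25 (limma adjusted p = 0.441) and Pdcd10 by 0.37 ± 0.29 (limma adjusted p = 0.262), and neither passed. In this comparison 76.6% of probes were called, 49.6% lower and 27.0% higher, and the median difference was -0.69. Fgf2 lay 0.79 below that median, and Ptk2b and Pdcd10 lay 0.47 and 1.06 above it.

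The Control and BZXD arrays did not overlap for Fgf2, as for 69.2% of tested probes in either direction and 44.8% in the lower one, and BZXD replicate 2 stood at -2.45 against -2.30 for the lowest Control arrays. All 10 spot positions were lower, by 0.87 to 1.87, and the exact two-sided permutation p was 0.0286. It was called lower in all 12 fits with 1 array left out, between -1.88 and -1.21. It was not called under normexp without an offset (-0.29, limma adjusted p = 0.154), and turned to 0.26 with the offset.

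Ptk2b against Control had no steady direction: 6 of 10 spot positions were lower, and the difference ran from -1.37 with no scaling to 0.77 with quantile normalization. Without BZXD replicate 2 it was called lower, at -0.47 (limma adjusted p = 0.0279), although no BZXD array measured it well above background. It was called lower with array weights (-0.54, limma adjusted p = 0.0120) and with no scaling (-1.37, limma adjusted p = 0.00144). It was called higher with quantile normalization (0.77, limma adjusted p = 0.0118), under normexp with an offset of 0 (0.40, limma adjusted p = 0.0404) and of 50 (0.42, limma adjusted p = 9.65e-06), and at the floor (0.53, limma adjusted p = 0.00674). At the floor that direction was fixed, because the BZXD floors, -2.95 to -2.66, lay above every Control level of Ptk2b. Pdcd10 was higher at 8 of 10 positions and was called without BZXD replicate 1 (0.65, limma adjusted p = 0.0278), with quantile normalization (0.98), with median scaling (0.83) and under both normexp settings (0.72 and 0.45). With the offset of 50 the median of all tested probes was 0.27, and Ptk2b and Pdcd10 lay 0.14 and 0.17 above it. The order of group means was thus CIA, Control, BZXD for Fgf2 and Ptk2b, and BZXD, Control, CIA for Pdcd10. Of the neighbours in these orders, only Control and BZXD for Fgf2 differed past the threshold.

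Differences between probes within an array are the same whichever constant is subtracted from the array, though quantile normalization can alter them. The level of Pdcd10 minus that of Fgf2 was -0.80 to -0.16 on Control arrays, -1.13 to -0.76 on CIA arrays and 0.62 to 2.51 on BZXD arrays. The BZXD arrays were thus apart from both other groups, and on BZXD replicate 2, where both probes were well above background, the value was 0.91. On BZXD replicate 1 neither probe was well above background, and on replicates 3 and 4 Pdcd10 alone was. Fgf2 minus Ptk2b was 0.98 to 1.43 in Control, 0.43 to 1.19 in CIA and -0.31 to 0.38 in BZXD, where both probes were near background on replicates 1, 3 and 4. Pdcd10 minus Ptk2b was 0.54 to 0.82 on Control and -0.44 to 0.26 on CIA arrays, which did not overlap, though only Control replicates 2 and 4 measured Ptk2b well above background. In BZXD it was 0.33 to 2.20, with Ptk2b well above background on 0 of the 4 arrays, so that nothing is read from the BZXD values of the pairs with Ptk2b. These values compare groups for the same pair of probes and say nothing about which transcript is more abundant. They were chosen after the levels were seen and carry no test. Single probes did not overlap for 66.2% of tested probes in BZXD against CIA, 69.2% in BZXD against Control and 21% in CIA against Control. The share of all probe pairs without overlap was not computed, so it is not known how unusual these separations are.

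**Figure D5:**
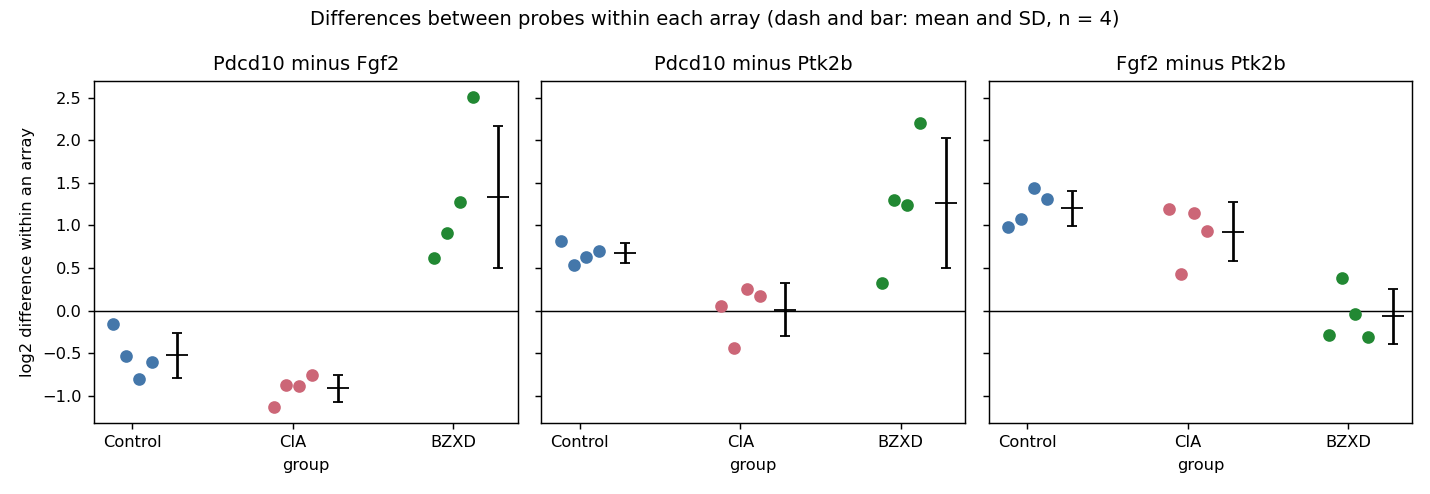
Differences in log2 level between pairs of probes within each array (vertical axis), by group, with the mean and SD of 4 arrays beside the points. Pdcd10 minus Fgf2 is 0.62 to 2.51 on BZXD arrays and -1.13 to -0.16 on Control and CIA arrays.

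The other named genes whose pattern came nearest were found from the root mean square difference between log2 levels over the 12 arrays, each gene centred on its own mean, among 16 named genes that were tested. Nearest to Fgf2 were Med16, a Mediator subunit, at 0.36, Odf2l, a centrosome-related gene, at 0.39, and P2rx2, an ATP-gated channel, at 0.45. All 3 had levels near background in BZXD, being well above background on 1, 0 and 0 of the 4 arrays. Nearest to Ptk2b were Ndfip1, an adaptor of ubiquitin ligases, at 0.29, Pdk3, a pyruvate dehydrogenase kinase, at 0.31, and Med16 at 0.44. Ndfip1, well above background on all 12 arrays, had group means of 1.101 in Control, 1.27 in CIA and 0.39 in BZXD. Nearest to Pdcd10 were Eif4b, a translation initiation factor, and Pop7, a ribonuclease P subunit, both at 0.36, and then the synaptic scaffold Dlg4 at 0.64. Eif4b stood at -2.82 in Control, -3.36 in CIA and -2.03 in BZXD, and Pop7 at -0.74, -0.75 and -0.19. Dlg4 stood at -1.05, -1.45 and -2.01 in the same order, and was thus lowest in BZXD, where the mean of Pdcd10 was highest.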

How the data were processed

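Single-colour (Cy3) arrays of synovial RNA from 12 samples were scanned and quantified by the authors with Agilent Feature Extraction 11.0.1.1, per the file headers, and the deposited intensity of a spot is already corrected for background by that software. The authors' deposited value table of log2 values holds 38620 probes and 0 of the 3 members, and was used only for counts of called probes. Sample titles gave the groups and replicate numbers.

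Spot intensities were converted to log2, averaged without outlier spots and scaled by the 75th percentile of each array. Probes well above background on at least 4 of 12 arrays were kept (31288), and 31247 had a value in every group. The members passed on 9 (Fgf2), 6 (Ptk2b) and 11 (Pdcd10) arrays. Ptk2b was well above background on 4 CIA, 2 Control and 0 BZXD arrays, so without CIA, where it was highest, it would not have passed. One limma fit (version 3.58.1, R 4.3.3; 9 residual degrees of freedom) gave the 3 comparisons, with two-sided p-values adjusted by Benjamini-Hochberg over all tested probes. The normexp settings used the median spot signal. No fit with the scan as a block could be made, since each group has its own scan, per the file headers. Negative controls gave 136 to 152 spots per array. Of 50 catalogue probes, 29 were named through RefSeq accessions (GRCr8). The rule for named genes took the members and, for each, the 3 named genes with the nearest pattern. The members and lists were chosen with earlier results of these data known. The fit was tested on simulated data of 29449 probes. For CIA and Control, 35% of simulated 2-fold changes were called with 12 arrays and 70% with 8. These shares were 40% and 10% for BZXD and CIA, and 42% and 15% for BZXD and Control. Unchanged probes were also called. With 12 and with 8 arrays they numbered 5 and 17 for CIA and Control, and 168 and 11 for BZXD and CIA. For BZXD and Control they numbered 181 and 32. The main fit thus missed most simulated 2-fold changes. In the comparisons with BZXD it also called more unchanged than changed probes, so its adjusted p-values were too small in that simulation. Few simulated probes were changed, while 74.7% and 76.6% of probes were called in these comparisons of the data. The simulated shares and counts therefore may not carry over to the BZXD fits of the data. Precision is limited by 4 arrays per group. In all, 26 other settings and 2 more, chosen after seeing the data (no scaling, and a floor for dim signals), were run.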

Additional observations from a re-analysis of the deposited data

How the results depend on the processing

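Of 126 member values under the alternatives other than leaving out 1 array, 90 kept their direction and side of the threshold, 4 lost the call, 16 gained it and 16 turned. The cause of these changes was not tested. With a normexp offset of 50, Fgf2, Ptk2b and Pdcd10 stood at -0.16, -0.21 and -0.31 for CIA against Control, 0.42, 0.63 and 0.75 for BZXD against CIA, and 0.26, 0.42 and 0.45 for BZXD against Control. The median of all tested probes in that setting was -0.17, 0.49 and 0.27 for these comparisons in the same order. With an offset of 0, Ptk2b and Pdcd10 were at 0.11 and 0.85 against CIA, and Fgf2, Ptk2b and Pdcd10 at -0.29, 0.40 and 0.72 against Control. Quantile normalization gave Ptk2b 0.076 and Pdcd10 1.04 against CIA and 0.77 and 0.98 against Control, and median scaling -0.31 and 0.95, then 0.24 and 0.83. The fit of 8 arrays left Ptk2b against CIA uncalled at -0.65, as did the exact permutation test. For Ptk2b in CIA against Control, a log2 difference of 0.44, the exact permutation test gave p = 0.0286. That p-value is unadjusted, but the count of 126 values set it against the same 0.05. Array weights called Ptk2b in CIA against Control (0.48) and BZXD against Control (-0.54), and Pdcd10 against CIA (0.55). No scaling, added after seeing the data, called Ptk2b in CIA against Control (1.16) and BZXD against Control (-1.37) and turned Pdcd10 to 0.50, -1.28 and -0.78. The floor, also added, put Ptk2b at 0.16 and 0.53, values set largely by the floors of the BZXD arrays, and Pdcd10 at 0.72 (against CIA).

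With 1 array left out, BZXD against CIA ranged from -0.91 to -0.47 for Ptk2b and 0.34 to 0.88 for Pdcd10, and BZXD against Control from -0.47 to -0.030 and 0.11 to 0.65. Fgf2 was called in 12 of 12 fits in both comparisons with BZXD, from -2.05 to -1.37 and from -1.88 to -1.21. Against CIA, Ptk2b was called in 7 of 12 and Pdcd10 in 1 of 12, and against Control each in 1 of 12.

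The count of called probes for CIA against Control was 4. It was 14700 with the offset of 50, 13 with the offset of 0, 15 with quantile normalization, 18 with median scaling, 2 with the median over spots, 31 without a filter, 2933 in the fit of 8 arrays, 6469 with array weights, 501 in the value table, 9096 with no scaling and 862 at the floor. It was 0 in limma with the 75th percentile of bright probes (4073 at an unadjusted p under 0.05) and among probes well above background on all 12 arrays (1188), a filter that left none of the 3 members and 9091 and 9135 calls for BZXD against CIA and Control. With 1 array left out it ran from 0 to 733, the highest without BZXD replicate 2.

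The replicate numbers were not taken as pairing the rats, because the labels do not say that they do. After group means were removed, the correlation of same-numbered arrays ran from -0.13 to 0.57 and exceeded 0.1 in 8 of 12 pairs. It was not set against that of differently numbered arrays, so it cannot decide whether the numbers pair rats. With the replicate block the count for CIA against Control was 0 in limma (3569 at an unadjusted p under 0.05), and no member's call changed. Signals of Fgf2 and Ptk2b near background limit what the BZXD arrays can show.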
